A study of Homo sapiens with 9 samples.

Results

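The transcriptome that LNCaP cells reached after 24 h of treatment with recombinant NRG1 was compared with that of the cells at 0 h, gene by gene and by groups of genes. The members are the genes with at least 10 counts in 3 or more of the 6 libraries of these 2 time points, which were 18905 of the 37351 genes in the table. LNCaP is a human metastatic prostate carcinoma line that responds to androgens. In both groups the cells had been held in medium without serum and calcium for 6 to 12 h. The 0 h group had received no NRG1, and the 24 h group had been exposed to 15 ng/mL rNRG1 (R&D Systems) for 24 h, with 3 biological replicates in each group. Per the methods, the replicates were wells of cells plated in triplicate, so that the p-values measure the spread between these wells of 1 line. No 24 h library without NRG1 was analysed here, and the effects of NRG1 and of the further 24 h in culture cannot be told apart. The methods do not state whether the medium was still without serum and calcium in that time.

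NRG1 (neuregulin-1) is a secreted growth factor of the EGF family that binds the receptors HER3 and HER4, encoded by ERBB3 and ERBB4. HER3 has little kinase activity of its own and signals as a heterodimer, above all with HER2 (ERBB2), through the PI3K/AKT and the RAS/ERK pathways. ERK phosphorylates transcription factors of the ETS family and induces immediate-early genes, together with inhibitors that feed back on the pathway, while AKT holds FOXO factors out of the nucleus. In prostate epithelium androgens maintain the secretory luminal program, and these cells are known for their zinc content, lipid synthesis and secretion.

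The libraries held 58267359 to 60985825 counts at 0 h and 47016302 to 54605125 at 24 h, and replicates were alike, with a common biological coefficient of variation of 4.06%. The 0 h replicate 1 stood slightly apart from the other 0 h libraries (chi-square per degree of freedom over genes of 7.92 and 9.25, against 4.79 for the other pair), and calls were therefore repeated without it. The line expressed its luminal markers at both times, with KLK3 at 974, 996 and 1011 CPM at 0 h and 1252, 1161 and 1135 CPM at 24 h. Of the markers of other cell types, TP63, KRT5, COL1A2, DCN, PECAM1, PTPRC, CD3E, CD14 and LYZ had at most 14 counts over the 6 libraries, and KRT14 had 53, whereas COL1A1 (22.3 to 26.4 CPM), LUM and VWF were detected. VWF, of endothelium, fell, with 12.7, 13.6 and 13.03 CPM at 0 h and 6.88, 7.36 and 7.93 CPM at 24 h (-0.83), and LUM, of fibroblasts, rose, with 1.08, 0.981 and 1.03 CPM at 0 h and 1.43, 1.44 and 1.69 CPM at 24 h (log2 fold change 0.56 ± 0.205 SE, adjusted p = 0.047), a call lost in 10 alternatives. The receptors were present throughout. ERBB3 was measured at 203, 200.5 and 211 CPM at 0 h and 212, 200.3 and 198 CPM at 24 h, with overlapping groups and adjusted p = 0.85. ERBB2 fell slightly, with 240.5, 255 and 246 CPM at 0 h and 229.5, 229 and 211 CPM at 24 h (log2 fold change -0.15 ± 0.0342 SE, adjusted p = 0.0013).

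Levels are given as CPM, the depth-scaled read count, on library sizes corrected with TMM. The adjusted p is the Benjamini-Hochberg value of the quasi-likelihood test of edgeR over all 18905 genes, and log2 fold changes are 24 h against 0 h. A gene is said to have risen or fallen where its adjusted p was at most 0.05. Of all tested genes 2279 rose (12.1%) and 1820 fell (9.63%), and these are the shares against which the groups below are read. With a fold change of at least 1.5 in addition, 290 genes rose (1.53%) and 348 fell (1.84%). Most differences were small, since the 4099 genes that passed had a median size of 0.24 on the log2 scale, and 47 genes differed by at least 4-fold, 28 upward and 19 downward. Protein-coding genes (13607 tested) rose more often than they fell, with 2163 against 1516. Both shares were larger than those over all tested genes, and the lists below hold mostly protein-coding genes. A list share slightly above that of all genes thus need not exceed that of protein-coding genes. Long noncoding RNAs (3565 tested) fell more often than they rose, with 239 against 79. For these RNAs both shares were smaller than those over all tested genes. The noncoding RNAs were measured at low level, with a median of 0.73 CPM against 25.5 CPM for protein-coding genes.

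**Figure D1:**
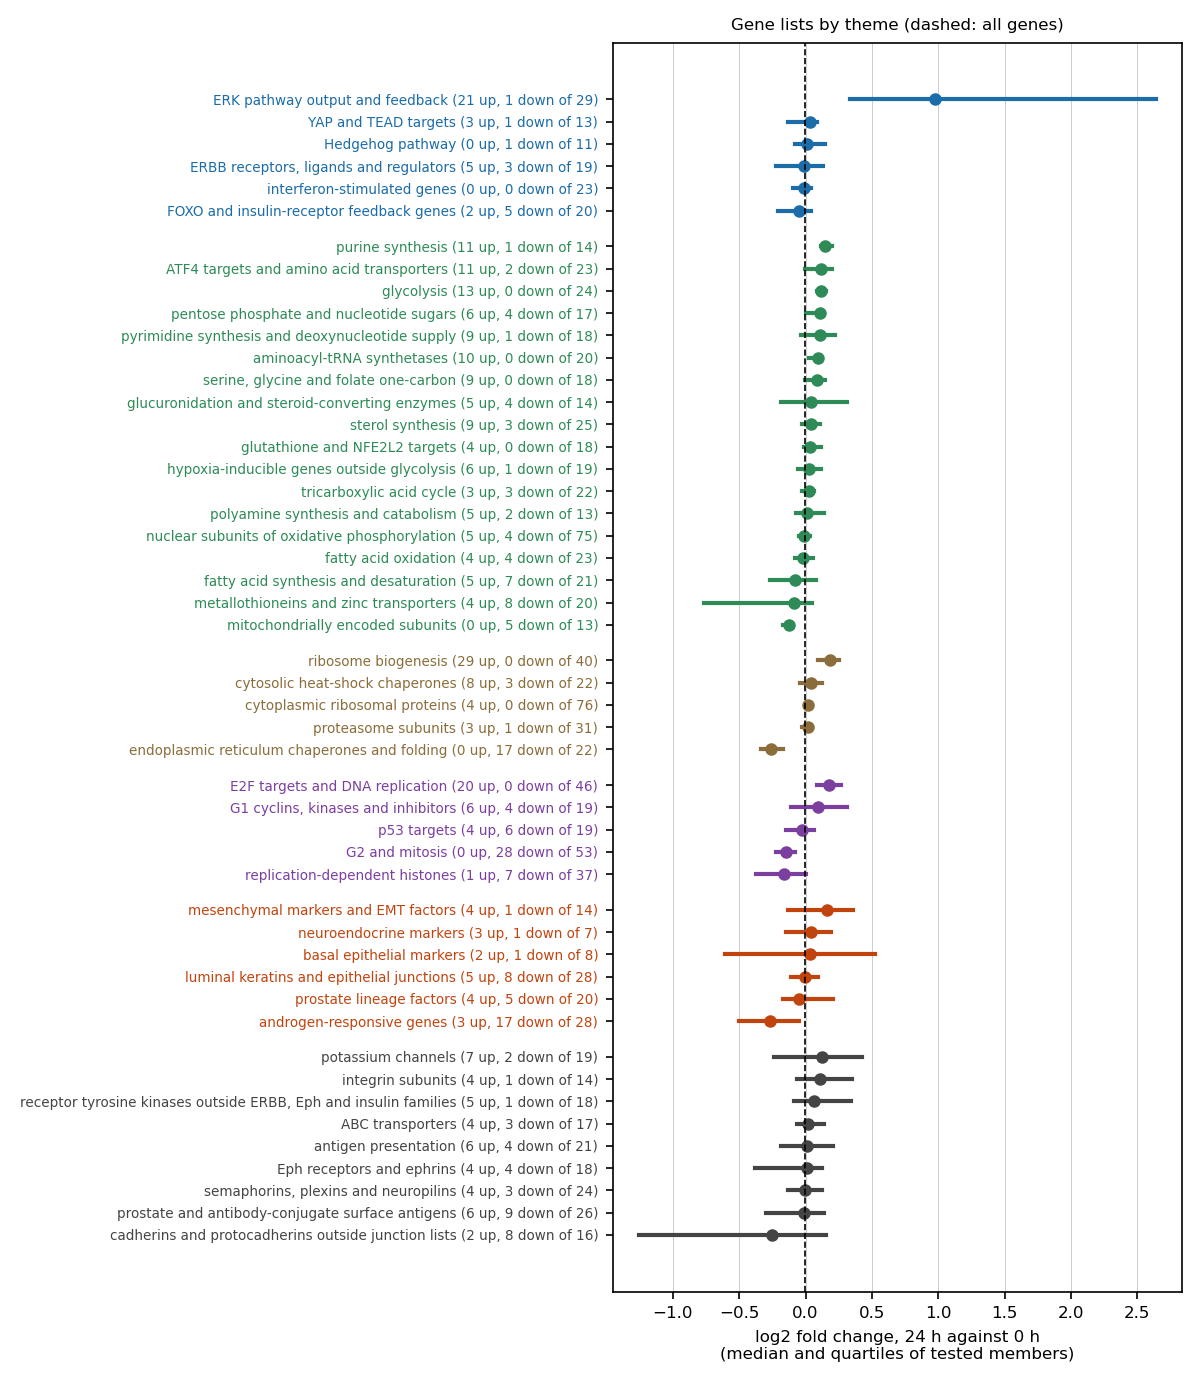
Median (point) and quartiles (bar) of the log2 fold change, 24 h against 0 h, of the tested members of 49 gene lists, coloured by theme (signalling blue, metabolism green, growth and folding brown, cell cycle purple, differentiation orange, surface grey), with the members that rose and fell in parentheses and the median of all tested genes (-0.01) as a dashed line. The list of ERK pathway output lies far to the right at a median of 0.98, and the endoplasmic reticulum chaperones and the androgen-responsive genes lie to the left at -0.26 and -0.27.

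The genes that rose most were outputs and inhibitors of the ERK pathway. ETV4, an ETS factor of the PEA3 subfamily, was at 0.258, 0.0344 and 0.188 CPM at 0 h and 24.6, 27.2 and 23.8 CPM at 24 h (log2 fold change 7.26 ± 0.156 SE, adjusted p = 1.6e-26). It overlaps DHX8 on the opposite strand, which had more counts and did not pass the test, and the counts of a pair of overlapping genes cannot be told apart where strand was not used. ETV5, of the same subfamily, was at 0.371, 0.6196 and 0.325 CPM at 0 h and 16.8, 16.03 and 15.2 CPM at 24 h (log2 fold change 5.18 ± 0.137 SE, adjusted p = 3.4e-26). SPRY4, a Sprouty inhibitor of receptor tyrosine kinase signalling, was at 0.0969, 0.103 and 0 CPM at 0 h and 4.88, 5.56 and 6.16 CPM at 24 h (log2 fold change 6.32 ± 0.266 SE, adjusted p = 1.4e-19). In all of these genes the 0 h libraries lay below 1 CPM, so that a fold change there rests on few counts at 0 h.

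DUSP6, a phosphatase that removes the activating phosphates of ERK, was at 0.468, 0.602 and 0.342 CPM at 0 h and 11.3, 12.9 and 11.96 CPM at 24 h (log2 fold change 4.67 ± 0.139 SE, adjusted p = 1.1e-24). The immediate-early factor FOS was at 1.61, 1.14 and 1.47 CPM at 0 h and 36.7, 32.5 and 35.03 CPM at 24 h (log2 fold change 4.62 ± 0.0863 SE, adjusted p = 1.2e-30), and EGR1 was at 0.597, 0.826 and 0.6498 CPM at 0 h and 22.8, 22.6 and 24.2 CPM at 24 h (log2 fold change 5.07 ± 0.101 SE, adjusted p = 7.0e-30). In each of these genes all libraries of 24 h exceeded all libraries of 0 h by over 10-fold. Of the whole list of ERK pathway output and feedback, 21 of 29 tested members rose (72.4%) and 1 fell (3.45%), with a median log2 fold change of 0.98, and 17 of those that rose also passed the 1.5-fold threshold. EGR2 (4.75), FOSL1 (2.64), MAFF (2.20), VGF (2.17), PHLDA2 (1.60), DUSP5 (1.53), SPRED1 (1.20), SPRED2 (0.98), SPHK1 (0.98), DUSP4 (0.83) and JUNB (0.79) were the others of these 17, and the member that fell was PHLDA1 (-0.50), a call lost in 12 alternatives. ETV1, the third PEA3 factor, rose by only 0.17 on the log2 scale (adjusted p = 4.4e-05). SPRY4 reached 10 counts only at 24 h, and a member of this kind entered the test through the group in which it was high. With 10 counts required in each of the 6 libraries, 17 members of the list rose and 0 fell, with a median of 0.79.

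The promoter of EGR1 is shown because the CArG box, the site of the serum response factor through which ERK-activated ternary complex factors act, occurs in it 2 times. Both matches lie close to the start of transcription, at -105 to -96 and at -83 to -74 counted from it. The letters are the 250 bases before the start from RefSeq (GRCh38.p14, chr5:138465229-138465478, + strand), with the CArG boxes in capitals.
EGR1: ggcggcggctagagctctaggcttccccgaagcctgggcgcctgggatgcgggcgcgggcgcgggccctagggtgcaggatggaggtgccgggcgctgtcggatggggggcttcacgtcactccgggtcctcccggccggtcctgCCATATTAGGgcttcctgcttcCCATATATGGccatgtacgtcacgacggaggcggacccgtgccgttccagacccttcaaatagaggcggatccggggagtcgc
Over the 300 bases from 250 before to 50 after the start and on both strands, a CArG box was found in 118 of the 11834 promoters matched to tested genes (0.997%), in 5 of the 199 promoters of genes that rose past both thresholds (2.51%) and in 1 of the 182 of genes that fell past both (0.549%). An AP-1 site (TGANTCA) was found in 548 of all promoters (4.63%), in 22 of those that rose past both thresholds (11.1%) and in 12 of those that fell (6.59%). ETV4 and ETV5 were not matched.

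**Figure D2:**
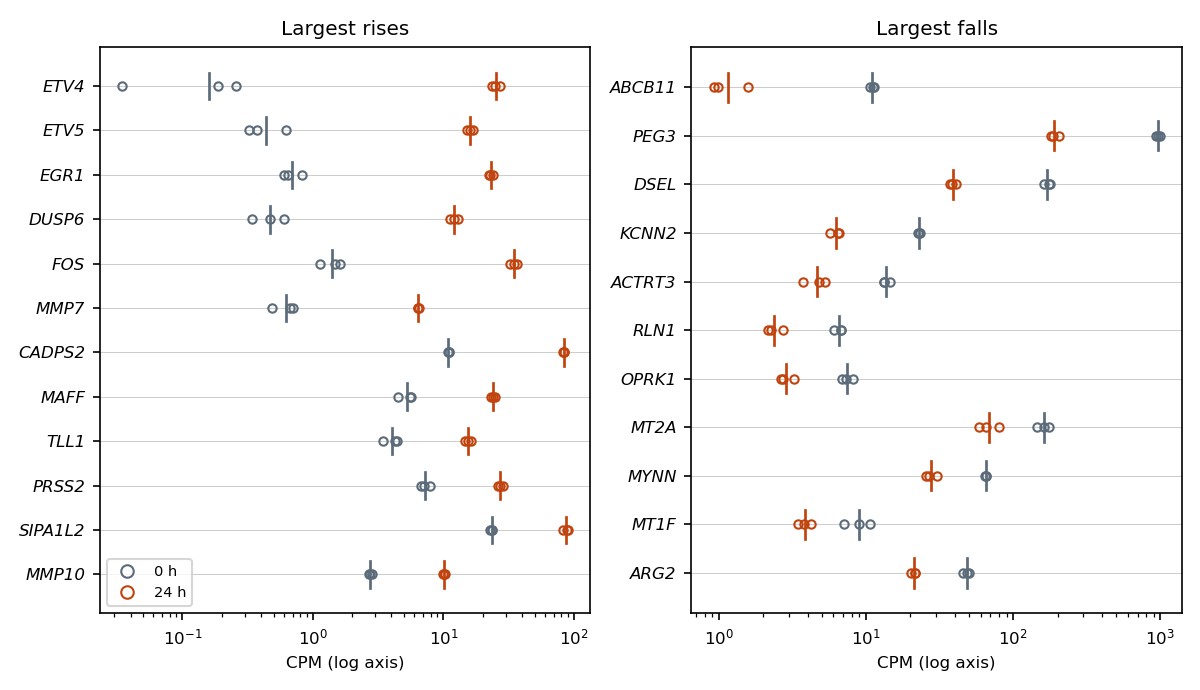
CPM (log axis) of the 12 genes with the largest rises and of 11 of the 12 with the largest falls among those past both thresholds whose average log2 CPM reached 2, in each of the 3 libraries of 0 h (grey) and of 24 h (orange), with bars at the group means. The 23 genes drawn were picked among those whose libraries of the 2 times do not overlap, so this separation is part of the choice. They run from the rise of ETV4 (log2 fold change 7.26) to the fall of ABCB11 (-3.25).

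CADPS2 and MMP7 were also among the 12 largest rises of genes whose average log2 CPM reached 2. CADPS2, which primes secretory vesicles for release, was at 11.03, 10.8 and 11 CPM at 0 h and 84.2, 83.5 and 83.2 CPM at 24 h (log2 fold change 2.94 ± 0.0446 SE, adjusted p = 2.2e-33). MMP7, a matrix metalloproteinase of glandular epithelia, was at 0.484, 0.671 and 0.701 CPM at 0 h and 6.41, 6.48 and 6.43 CPM at 24 h (log2 fold change 3.38 ± 0.1496 SE, adjusted p = 1.9e-19). The libraries of a group differed by a few percent in CADPS2 and all of those at 24 h were far above those at 0 h. Genes of other extracellular proteases rose as well, namely TLL1, a tolloid-like procollagen proteinase (1.93), PRSS2, the trypsin-2 gene (1.92), and MMP10, stromelysin-2 (1.87), which overlaps WTAPP1. SIPA1L2, a regulator of RAP GTPases, rose from 23.4 ± 0.665 to 87.2 ± 3.98 CPM (mean ± SD, n = 3 each, as wherever ± follows a CPM value, log2 fold change 1.90).

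The largest fall was in ABCB11, the bile salt export pump of the ABC transporter family, with 11.1, 10.7 and 11.2 CPM at 0 h and 0.979, 0.920 and 1.57 CPM at 24 h (log2 fold change -3.25 ± 0.137 SE, adjusted p = 4.1e-20). Its transcripts share a short stretch of near-identical sequence with those of MFN1. PEG3, an imprinted zinc finger gene, was at 989, 929.5 and 969 CPM at 0 h and 180.0, 186 and 204 CPM at 24 h (log2 fold change -2.34 ± 0.0456 SE, adjusted p = 9.9e-20). DSEL, a paralog of dermatan sulfate epimerase, was at 177, 175 and 161 CPM at 0 h and 38.5, 37.2 and 40.98 CPM at 24 h (log2 fold change -2.14 ± 0.0426 SE, adjusted p = 3.7e-29). The rule that picked these falls required no overlap between the groups. PEG3 and DSEL were well above the level at which counting limits the value. KCNN2, a calcium-activated potassium channel, fell from 22.9 ± 0.434 to 6.23 ± 0.466 CPM (-1.88 on the log2 scale), and OPRK1, the kappa opioid receptor, fell from 7.47 ± 0.631 to 2.86 ± 0.318 CPM (-1.39). Also among the 12 largest falls were MT2A, MT1F, ARG2, ACTRT3, MYNN and RLN1, which are described with their groups.

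Other signalling groups moved less than ERK output. Of the ERBB receptors, ligands and regulators, 5 of 19 tested members rose (26.3%) and 3 fell (15.8%). HBEGF, which encodes an EGF-family ligand, was at 7.04, 6.51 and 7.01 CPM at 0 h and 14.1, 12.2 and 14.2 CPM at 24 h (log2 fold change 0.98 ± 0.0799 SE, adjusted p = 6.0e-12), and ERRFI1, a feedback inhibitor of ERBB kinases, rose from 35.3 ± 1.46 to 48.9 ± 1.31 CPM (log2 fold change 0.47). CBLB, a ubiquitin ligase for these receptors, rose by 0.41, and LRIG3 fell to a log2 fold change of -0.28. Of the genes that FOXO factors induce and of the insulin-receptor feedback genes, 2 of 20 tested members rose (10%) and 5 fell (25%). The members that fell past 1.5-fold were CITED2, a transcriptional co-regulator, with 132, 136 and 126 CPM at 0 h and 66.2, 69.1 and 62.8 CPM at 24 h (-0.99), and the sestrins SESN1 (-0.68) and SESN3 (-0.66), while IGF1R rose by 0.46. Among YAP and TEAD targets, 3 of 13 tested members rose (23.1%) and 1 fell (7.69%). Those that rose were FJX1, which encodes a glycoprotein of the secretory pathway (2.28), CRIM1 (0.58), which overlaps FEZ2, and AMOTL2 (0.32). The member that fell was AMOTL1, an angiomotin-like protein. It was at 1.31, 0.981 and 1.11 CPM at 0 h and 0.256, 0.3496 and 0.288 CPM at 24 h (-1.92). Few counts limit the fold at this level. Of 23 interferon-stimulated genes 0 rose and 0 fell by edgeR, with 2 at an unadjusted p under 0.05 and 0 past the adjusted p of DESeq2. Of 11 tested Hedgehog pathway genes 0 rose and 1, CDON, fell (-0.19).

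Metabolic genes changed in many places and by small amounts. Among glycolytic genes, 13 of 24 tested members rose (54.2%) and 0 fell (0%), with a median of 0.12. ENO2, the gamma isoform of enolase, was at 84.4, 84.02 and 89.6 CPM at 0 h and 112, 107 and 102 CPM at 24 h (log2 fold change 0.31 ± 0.0388 SE, adjusted p = 1.1e-07), and it overlaps LRRC23. HK2, hexokinase 2, which traps glucose in the cell, was at 176, 159 and 157 CPM at 0 h and 199, 203 and 192 CPM at 24 h (log2 fold change 0.27 ± 0.0374 SE, adjusted p = 7.7e-07). ALDOC (0.27), the lactate and pyruvate carrier SLC16A1 (0.27) and PFKFB3 (0.27) rose to a like degree, and none of the 13 reached 1.5-fold. Without 24 h replicate 1 the number of glycolytic genes that rose was 6, without 24 h replicate 2 it was 7 and without 0 h replicate 1 it was 8. The median over the list of each library's log2 difference from the 0 h mean was 0.18 and 0.16 in 24 h replicates 1 and 2 and 0.020 in replicate 3, close to the highest 0 h library (0.019), and without 24 h replicate 3 the number that rose was 19.

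In the pentose phosphate pathway and the synthesis of nucleotide sugars, 6 of 17 tested members rose (35.3%) and 4 fell (23.5%), and without 24 h replicate 2 the number that rose was 3. UAP1, which makes UDP-N-acetylglucosamine, was at 264, 269 and 277 CPM at 0 h and 408, 399 and 401 CPM at 24 h (log2 fold change 0.58 ± 0.0307 SE, adjusted p = 4.6e-17). Other enzymes of sugar nucleotide supply fell, with PGM3 at -0.32 and GMPPA at -0.31, so that the list did not move as a whole. Among genes of the tricarboxylic acid cycle, 3 of 22 tested members rose (13.6%) and 3 fell (13.6%). IDH3A (0.27) and IDH3G (0.18), subunits of the NAD-dependent isocitrate dehydrogenase, rose, whereas IDH2, the mitochondrial NADP-dependent enzyme, fell (-0.14). IDH3G lost its call without 24 h replicate 2. The number of the list that rose was 1 without 24 h replicate 2 and 5 without 0 h replicate 3, and the number that fell was 1 without 0 h replicate 2 or 3 or 24 h replicate 1 or 3.

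The respiratory chain was close to level. Among nuclear-encoded subunits 5 of 75 tested members rose (6.67%) and 4 fell (5.33%), both below the shares among all genes, and the median was -0.01. Without 0 h replicate 3, 3 rose and 1 fell. UQCRC2, a core subunit of complex III, was at 356, 351 and 357 CPM at 0 h and 458, 454 and 442 CPM at 24 h (log2 fold change 0.35 ± 0.0311 SE, adjusted p = 5.2e-11), and NDUFB4, of complex I, at 436, 453 and 421 CPM at 0 h and 359.8, 352 and 347 CPM at 24 h (log2 fold change -0.31 ± 0.0316 SE, adjusted p = 1.5e-09). The 13 subunits encoded in mitochondrial DNA all had log2 fold changes below 0, of which 5 passed (38.5%), with a median of -0.12. The number that passed was 1 without 24 h replicate 3, 2 without either 0 h replicate 2 or 0 h replicate 3, and 3 without 24 h replicate 2, and the median ranged from -0.19 to -0.057 with 1 library left out. MT-ND5 was at 2408, 2487 and 2814 CPM at 0 h and 2387, 2298 and 2268 CPM at 24 h (log2 fold change -0.15 ± 0.0413 SE, adjusted p = 0.011), a difference that lost its call when 0 h replicate 3 or 24 h replicate 3 was left out. The mitochondrially encoded share of all counts was 5.695% ± 0.3908 (SD) in the 3 libraries of 0 h and 5.205% ± 0.1717 in those of 24 h, with p = 0.2 in a two-sided exact permutation test, where 0.1 is the smallest p that 3 against 3 allow.

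Genes of lipid synthesis moved both ways. Among genes of sterol synthesis, 9 of 25 tested members rose (36%) and 3 fell (12%), and without 0 h replicate 1, which stood apart, 6 rose and 6 fell. SQLE, squalene epoxidase, was at 175, 180.2 and 176 CPM at 0 h and 202, 196 and 208 CPM at 24 h (log2 fold change 0.19 ± 0.0319 SE, adjusted p = 1.8e-05) and HMGCS1, which makes HMG-CoA, rose by 0.16, while LSS, lanosterol synthase, which acts after SQLE, fell (-0.17). In fatty acid synthesis and desaturation, 5 of 21 tested members rose (23.8%) and 7 fell (33.3%). ACACA, acetyl-CoA carboxylase 1, the committed enzyme of the pathway, was at 441, 403 and 402 CPM at 0 h and 337, 346 and 352 CPM at 24 h (log2 fold change -0.27 ± 0.03596 SE, adjusted p = 6.1e-07). ACACB (-0.29), the acyl-CoA ligase ACSL1 (-0.29) and the elongase ELOVL7 (-0.27) also fell, and ACSS2 (0.23) and ELOVL1 (0.21) rose. For fatty acid oxidation, 4 of 23 tested members rose (17.4%) and 4 fell (17.4%), among them ACADM, the medium-chain acyl-CoA dehydrogenase, at 92, 92.6 and 87.2 CPM at 0 h and 129, 127 and 130.5 CPM at 24 h (0.51). The number of the list that rose was 2 without 0 h replicate 1 or 0 h replicate 3. ACADM overlaps RABGGTB and shares near-identical sequence with DLST, so its counts may be mixed.

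Of the metabolic lists, purine synthesis had the largest share of members that rose. Among purine synthesis genes, 11 of 14 tested members rose (78.6%) and 1 fell (7.14%), and the median was 0.15. PFAS, which catalyses a step on the way to IMP, was at 31.4, 33.8 and 34.7 CPM at 0 h and 40.98, 42.03 and 43.7 CPM at 24 h (log2 fold change 0.34 ± 0.04596 SE, adjusted p = 4.0e-07), and ADSS2 (0.28), GART (0.23), HPRT1 (0.20), ATIC (0.18) and GMPS (0.18) rose with it. PFAS overlaps CTC1 and GART overlaps SON, both on the opposite strand and with large counts. The member that fell was PRPS1 (-0.16). In pyrimidine synthesis and deoxynucleotide supply, 9 of 18 tested members rose (50%) and 1 fell (5.56%). CTPS1, CTP synthase, was at 57.4, 59.4 and 61.5 CPM at 0 h and 77.3, 76.6 and 73.3 CPM at 24 h (log2 fold change 0.35 ± 0.0395 SE, adjusted p = 1.2e-08), and the nucleoside carrier SLC29A1 (0.55), CAD (0.24) and RRM2, the S-phase subunit of ribonucleotide reductase (0.27), rose. TK1, thymidine kinase, fell from 77.4 ± 5.45 to 64.5 ± 3.21 CPM (-0.26).

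One-carbon and amino acid supply moved in the same direction. In serine, glycine and folate metabolism, 9 of 18 tested members rose (50%) and 0 fell (0%), led by MTHFD1L, of the mitochondrial folate pathway, at 55.8, 62.5 and 61.95 CPM at 0 h and 72.9, 74.7 and 73.1 CPM at 24 h (log2 fold change 0.29 ± 0.0405 SE, adjusted p = 7.7e-07). Of ATF4 targets and amino acid transporters, 11 of 23 tested members rose (47.8%) and 2 fell (8.7%). SLC38A2, a carrier of neutral amino acids, was at 397, 386 and 387 CPM at 0 h and 472, 493 and 493 CPM at 24 h (log2 fold change 0.32 ± 0.0304 SE, adjusted p = 3.0e-10), and CHAC1 (0.39), asparagine synthetase ASNS (0.31) and SLC43A1 (0.32) also rose, whereas DDIT3 (-0.29) and NUPR1 (-0.32), stress regulators of the same list, fell. ATF4 itself had a log2 fold change of 0.01 (adjusted p = 0.83). Among aminoacyl-tRNA synthetases 10 of 20 tested members rose (50%) and 0 fell (0%), with VARS1 (0.24), FARSB (0.23) and GARS1 (0.17) foremost. The number that rose was 5 without 0 h replicate 1 or 24 h replicate 2, and 6 without 24 h replicate 3.

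Polyamine genes moved both ways. Over the list, 5 of 13 tested members rose (38.5%) and 2 fell (15.4%). The synthetic enzymes ODC1, at 753, 752 and 741 CPM at 0 h and 885, 879.5 and 854 CPM at 24 h (0.22), SRM (0.24) and AMD1 (0.14) rose. SAT1, which acetylates polyamines for export and breakdown, was at 82.7, 83.3 and 84.95 CPM at 0 h and 64.5, 60.9 and 61.5 CPM at 24 h (log2 fold change -0.43 ± 0.0363 SE, adjusted p = 1.7e-11). ARG2, mitochondrial arginase, which supplies ornithine, was at 45.5, 50.4 and 48.4 CPM at 0 h and 20.3, 21.4 and 21.4 CPM at 24 h (log2 fold change -1.19 ± 0.04899 SE, adjusted p = 2.3e-20), and it overlaps VTI1B on the opposite strand.

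Of the glutathione and NFE2L2 target genes, 4 of 18 tested members rose (22.2%) and 0 fell (0%), with OSGIN1 at 0.85, SLC48A1 at 0.42, GSTM3 at 0.21 and FTH1 at 0.10, which lost its call without 0 h replicate 3 or 24 h replicate 1. NQO1 (log2 fold change -0.02, adjusted p = 0.81) and TXNRD1 (0.01, 0.84) did not pass. Among hypoxia-inducible genes outside glycolysis 6 of 19 tested members rose (31.6%) and 1 fell (5.26%), and the number that rose was 2 without either 24 h replicate 1 or 24 h replicate 2, and 3 without 0 h replicate 3. CA12, a membrane carbonic anhydrase, was at 19.6, 19.04 and 20.01 CPM at 0 h and 31.2, 31.7 and 28.99 CPM at 24 h (log2 fold change 0.65 ± 0.0521 SE, adjusted p = 3.6e-12), and VEGFA rose by 0.24.

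Among enzymes that conjugate or convert androgens, 5 of 14 tested members rose (35.7%) and 4 fell (28.6%). UGT2B10 was at 3.13, 3.75 and 3.15 CPM at 0 h and 8.35, 7.103 and 7.39 CPM at 24 h (log2 fold change 1.19 ± 0.106 SE, adjusted p = 5.9e-11). UGT2B17, one of the glucuronosyltransferases that inactivate testosterone and dihydrotestosterone, was at 204, 206 and 203 CPM at 0 h and 153, 153 and 151 CPM at 24 h (log2 fold change -0.43 ± 0.0314 SE, adjusted p = 3.5e-13), and UGT2B15, its near-identical neighbour, fell by 0.21 on the log2 scale. RDH11, a retinol and androgen-regulated reductase, was at 469.6, 484 and 483 CPM at 0 h and 331, 337 and 334 CPM at 24 h (log2 fold change -0.52 ± 0.0299 SE, adjusted p = 4.3e-16). The UGT2B genes are close copies, and the way reads that map to more than one gene were counted was not stated.

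The metallothioneins MT2A, MT1G, MT1F and MT1X, small proteins that bind zinc and copper, fell, and zinc transporters moved both ways. MT2A was at 176, 161 and 145 CPM at 0 h and 80.4, 58.4 and 65.4 CPM at 24 h (log2 fold change -1.24 ± 0.132 SE, adjusted p = 7.3e-04), MT1G at 85.6, 75.5 and 66.8 CPM at 0 h and 45.6, 39.8 and 37.2 CPM at 24 h (log2 fold change -0.90 ± 0.117 SE, adjusted p = 0.0017) and MT1F at 10.7, 8.93 and 7.04 CPM at 0 h and 3.81, 4.21 and 3.46 CPM at 24 h (log2 fold change -1.22 ± 0.127 SE, adjusted p = 7.6e-08). In each the lowest 0 h library was above the highest 24 h library. MT1X fell by 0.59 on the log2 scale, and MT3 was at 0.194, 0.224 and 0.257 CPM at 0 h and 0.0426, 0.294 and 0.0576 CPM at 24 h (adjusted p = 0.45), a level set by few counts. SLC30A4, a zinc transporter of vesicles, was at 264, 240.2 and 249 CPM at 0 h and 111, 108 and 122 CPM at 24 h (log2 fold change -1.14 ± 0.0399 SE, adjusted p = 2.1e-20) and SLC30A10 at 3.33, 4.11 and 3.61 CPM at 0 h and 1.06, 1.66 and 2.09 CPM at 24 h (-1.19), whereas SLC30A1, the zinc exporter of the plasma membrane, rose, with 21.4, 16.3 and 15.99 CPM at 0 h and 35.7, 32.4 and 30 CPM at 24 h (log2 fold change 0.87 ± 0.122 SE, adjusted p = 0.0014). Over metallothioneins and zinc transporters together, 4 of 20 tested members rose (20%) and 8 fell (40%). The importers SLC39A4 (0.36) and SLC39A8 (0.27) rose.

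The promoter of MT2A is shown because metal response elements, the sites of the zinc-sensing factor MTF1, recur in it. The core was searched as TGCACNC and TGCGCNC on both strands, and 8 matches were found, 7 of them in the 250 bases before the start printed here (GRCh38.p14, chr16:56608334-56608583, + strand), in capitals.
MT2A: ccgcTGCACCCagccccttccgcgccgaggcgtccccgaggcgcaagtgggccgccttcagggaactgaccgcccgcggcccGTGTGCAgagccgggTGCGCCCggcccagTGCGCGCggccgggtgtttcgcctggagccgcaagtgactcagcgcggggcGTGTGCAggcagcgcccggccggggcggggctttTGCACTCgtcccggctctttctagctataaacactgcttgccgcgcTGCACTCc
This short core is frequent, with at least 1 match in 4540 of all 11834 promoters (38.4%), in 7 of the 15 promoters matched to this list (46.7%) and in 64 of the 182 of genes that fell past both thresholds (35.2%). Of the metallothioneins only MT1X, with 4 matches, was also matched to a promoter.

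Most genes of ribosome biogenesis rose, and most chaperones of the endoplasmic reticulum fell. Among genes of ribosome biogenesis, 29 of 40 tested members rose (72.5%) and 0 fell (0%), with a median of 0.18. POLR3G, a subunit of RNA polymerase III, was at 12.2, 12.5 and 12.3 CPM at 0 h and 20.8, 20.3 and 20.9 CPM at 24 h (log2 fold change 0.74 ± 0.0595 SE, adjusted p = 3.2e-12), and it overlaps MBLAC2. LYAR, a nucleolar factor, was at 18.8, 21.3 and 20.6 CPM at 0 h and 25.7, 25.3 and 25.9 CPM at 24 h (log2 fold change 0.34 ± 0.0542 SE, adjusted p = 7.7e-06). MYBBP1A (0.34), BOP1 (0.33), DDX21 (0.33), NOP16 (0.33) and NOLC1 (0.28) rose by amounts close to each other, and POLR1A, POLR1B and POLR1C, of RNA polymerase I, rose by 0.19, 0.26 and 0.24, of which POLR1A lost its call in 5 alternatives. NPM1 (0.02, adjusted p = 0.67) and FBL (0.03, 0.73) did not pass. An E-box CACGTG, the site of MYC and related factors, was found in 11 of the 34 promoters matched to this list (32.4%) and in 1177 of all 11834 (9.95%). MYC itself was at 292, 303 and 291 CPM at 0 h and 411, 416 and 393 CPM at 24 h (log2 fold change 0.46 ± 0.0313 SE, adjusted p = 3.9e-14).

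Few genes of ribosomal proteins passed. Over the list, 4 of 76 tested members rose (5.26%) and 0 fell (0%), with a median of 0.02, and 2 rose without 24 h replicate 1 or 24 h replicate 2. Of the proteasome, 3 of 31 tested members rose (9.68%) and 1 fell (3.23%), with PSMD14 at 0.26. Of the cytosolic heat-shock chaperones, 8 of 22 tested members rose (36.4%) and 3 fell (13.6%): HSPA4L (0.34), HSPA4 (0.23) and CCT2 (0.19) rose and TCP1, a subunit of the same chaperonin as CCT2, fell (-0.27). HSPA1A was at a log2 fold change of -0.65 with adjusted p = 0.2.

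In the endoplasmic reticulum the change went the other way. Over the list, 0 of 22 tested members rose (0%) and 17 fell (77.3%), with a median of -0.26, and none of the falls reached 1.5-fold. HSPA5 (BiP), the Hsp70 of the compartment, was at 2754, 3115 and 3319 CPM at 0 h and 2263, 2429 and 2361 CPM at 24 h (log2 fold change -0.38 ± 0.0681 SE, adjusted p = 0.0042). HSP90B1, the Hsp90 of the compartment, was at 2976, 3125 and 3159 CPM at 0 h and 2297, 2350 and 2382 CPM at 24 h (log2 fold change -0.40 ± 0.0311 SE, adjusted p = 1.8e-12). CALR, the calcium-binding lectin chaperone calreticulin, was at 2755, 3166 and 3044 CPM at 0 h and 2412, 2462 and 2235 CPM at 24 h (log2 fold change -0.34 ± 0.0466 SE, adjusted p = 4.4e-05). In each of the 3 genes the lowest 0 h library, replicate 1, lay above the highest 24 h library. That library was the lowest of the 0 h libraries in 21 of the 22 members, and without it 19 fell, with a median of -0.31. PDIA4, a protein disulfide isomerase, was at 745, 837 and 873 CPM at 0 h and 607, 619.8 and 591 CPM at 24 h (log2 fold change -0.43 ± 0.0461 SE, adjusted p = 1.3e-06), and CRELD2 at 194, 213 and 204 CPM at 0 h and 153, 151 and 155 CPM at 24 h (log2 fold change -0.41 ± 0.0345 SE, adjusted p = 9.5e-12). XBP1, a transcription factor of the unfolded protein response, was at 434, 471 and 472 CPM at 0 h and 451, 457 and 456 CPM at 24 h with adjusted p = 0.82. Both times followed culture without calcium, at the onset of NRG1 treatment and 24 h later, and the part of the medium in these differences was not tested.

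The promoters of HSPA5 and HSP90B1 are shown because they hold the ER stress response element, a CCAAT followed after 9 bases by CCACG, which binds NF-Y and ATF6. They hold 1 and 2 elements, at -66 to -48 in HSPA5 and at -194 to -176 and -89 to -71 in HSP90B1, given in capitals as the 250 bases before each start (GRCh38.p14, HSPA5 chr9:125241344-125241593, − strand, and HSP90B1 chr12:103930160-103930409, + strand).
HSPA5: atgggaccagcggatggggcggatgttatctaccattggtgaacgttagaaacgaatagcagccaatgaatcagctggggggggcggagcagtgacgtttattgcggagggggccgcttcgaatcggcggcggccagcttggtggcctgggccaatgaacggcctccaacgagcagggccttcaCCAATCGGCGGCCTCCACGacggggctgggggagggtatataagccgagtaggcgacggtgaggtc
HSP90B1: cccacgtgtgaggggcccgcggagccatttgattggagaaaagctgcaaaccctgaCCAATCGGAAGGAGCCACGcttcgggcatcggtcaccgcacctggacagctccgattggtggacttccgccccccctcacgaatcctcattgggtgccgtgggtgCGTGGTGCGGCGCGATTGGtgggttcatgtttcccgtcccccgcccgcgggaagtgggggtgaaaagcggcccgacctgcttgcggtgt
The element was found in 15 of the 11834 promoters (0.127%), and 7 of these 15 are among the 21 promoters matched to this list (33.3%): HSPA5, HSP90B1, CALR, CANX, CRELD2, XBP1 and ERO1B. Of these 7 genes, 6 fell and XBP1 did not pass. The CCAAT box alone was in 4343 of all promoters (36.7%) and in 19 of the 21 (90.5%). The matches describe the letters in these windows and are not evidence that a factor was bound.

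**Figure D3:**
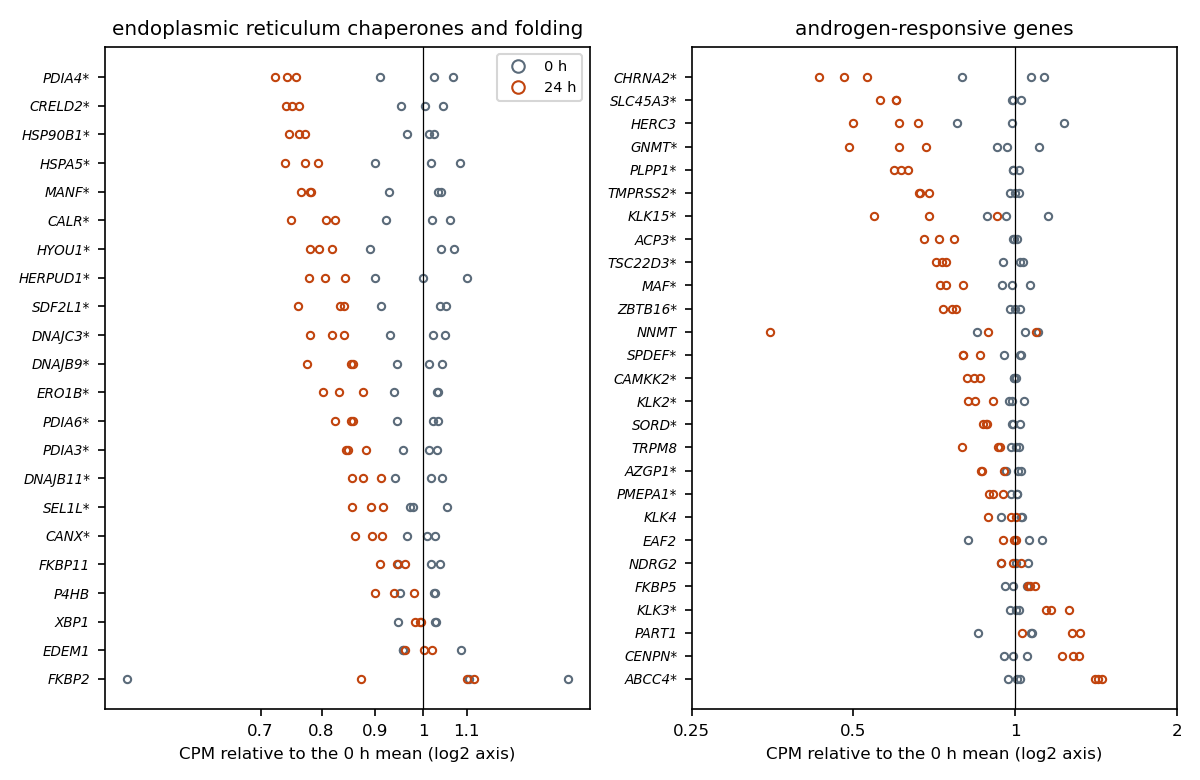
CPM of each library relative to the 0 h mean (log2 axis) for the tested members of the lists of endoplasmic reticulum chaperones and of androgen-responsive genes, with 0 h in grey, 24 h in orange and an asterisk where the adjusted p was at most 0.05. In the left panel 17 of 22 genes fell, and the 0 h replicate 1 is the lowest grey point in 21 of the rows. The right panel draws 27 of the 28 tested members of its list, in which 17 fell and 3 rose.

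The cell cycle lists differed in direction, since the genes of DNA replication that passed the test all rose and those of G2 and mitosis that passed all fell. Among G1 regulators 6 of 19 tested members rose (31.6%) and 4 fell (21.1%). CCND1, cyclin D1, was at 319, 319 and 295 CPM at 0 h and 395, 394 and 376 CPM at 24 h (log2 fold change 0.32 ± 0.0329 SE, adjusted p = 1.4e-09), and CCND3 (0.31) and CCNE1 (0.33) rose. The inhibitors of cyclin-dependent kinases CDKN1B (p27), at 154, 159.5 and 160.3 CPM at 0 h and 132, 138 and 136 CPM at 24 h (-0.22), CDKN1A (p21, -0.19), CDKN2C (-0.26) and CDKN1C (p57, -0.70) fell, whereas CDKN2A rose (0.45).

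Among E2F targets and DNA replication genes, 20 of 46 tested members rose (43.5%) and 0 fell (0%), with a median of 0.18. GMNN, geminin, which restrains licensing of replication origins, was at 20.3, 19.7 and 20.01 CPM at 0 h and 31.1, 33.2 and 34.05 CPM at 24 h (log2 fold change 0.71 ± 0.0509 SE, adjusted p = 1.6e-13). MCM6, a subunit of the replicative helicase, was at 31.5, 33.2 and 32.97 CPM at 0 h and 46.3, 40.9 and 41.8 CPM at 24 h (log2 fold change 0.40 ± 0.0467 SE, adjusted p = 2.6e-08), and MCM7 (0.18), MCM2 (0.19), MCM4 (0.22), MCM3 (0.23) and MCM5 (0.31) rose. E2F1, at 23.1, 24.4 and 22.9 CPM at 0 h and 27.4, 29.7 and 30.7 CPM at 24 h (0.32), CDT1 (0.30), UHRF1 (0.31) and PCNA (0.15) rose too. CDC6 did not pass (-0.01, adjusted p = 0.91).

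Among genes of G2 and mitosis, 0 of 53 tested members rose (0%) and 28 fell (52.8%), with a median of -0.15, and 0 reached 1.5-fold. PTTG1, securin, which delays the separation of sister chromatids until anaphase, was at 45.5, 48.9 and 48.6 CPM at 0 h and 35.5, 35.1 and 36.7 CPM at 24 h (log2 fold change -0.41 ± 0.0437 SE, adjusted p = 2.9e-09). HMMR, a spindle protein, was at 64.7, 67.4 and 68.9 CPM at 0 h and 49.4, 51.8 and 53.6 CPM at 24 h (log2 fold change -0.38 ± 0.0396 SE, adjusted p = 2.7e-09). CCNB1, cyclin B1, was at 101, 111 and 116 CPM at 0 h and 94.95, 91.9 and 92.4 CPM at 24 h (log2 fold change -0.23 ± 0.0391 SE, adjusted p = 2.3e-05). The groups did not overlap in these genes, though the lowest 0 h value of CCNB1, in replicate 1, was close to the highest at 24 h. PLK1 (-0.21), AURKA (-0.20), FOXM1 (-0.21), CDC20 (-0.27), BIRC5 (-0.26), UBE2C (-0.29), DLGAP5 (-0.31) and KIF4A (-0.31) fell as well. CDK1 (-0.07, adjusted p = 0.19) and MKI67 (-0.14, 0.39) did not pass. Leaving out 0 h replicate 3 or 24 h replicate 2 lowered the number that fell to 18.

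The promoters of MCM6 and HMMR are shown for the sites that are typical of these groups, with the 250 bases before each start (GRCh38.p14, MCM6 chr2:135876444-135876693, − strand, and HMMR chr5:163460382-163460631, + strand). Capitals mark in MCM6 the E2F site, searched as TTTCGCGC and TTTGGCGC, and in HMMR the CHR element TTTGAA, through which the DREAM and MuvB complexes act on genes of late cell cycle.
MCM6: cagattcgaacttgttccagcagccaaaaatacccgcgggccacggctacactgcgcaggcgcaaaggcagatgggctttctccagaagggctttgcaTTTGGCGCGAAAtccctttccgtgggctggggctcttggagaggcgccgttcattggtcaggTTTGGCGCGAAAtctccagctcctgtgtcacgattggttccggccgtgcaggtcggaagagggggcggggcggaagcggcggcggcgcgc
HMMR: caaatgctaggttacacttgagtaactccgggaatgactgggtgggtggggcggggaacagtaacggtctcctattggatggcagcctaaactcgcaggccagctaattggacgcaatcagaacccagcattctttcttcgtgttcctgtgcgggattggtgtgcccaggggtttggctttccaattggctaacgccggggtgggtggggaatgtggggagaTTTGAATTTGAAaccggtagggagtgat
In MCM6 the 4 matches form 2 sites in which the motif is met on both strands with overlap, at -152 to -141 and at -90 to -79, and in HMMR 2 matches lie side by side from -28 to -17. An E2F site was found in 14 of the 38 promoters of E2F targets (36.8%), in 2 of the 46 of G2 and mitosis (4.35%) and in 232 of all 11834 (1.96%). The CHR was found in 31 of the 46 promoters of G2 and mitosis (67.4%), in 1 of the 38 of E2F targets (2.63%) and in 1148 of all (9.7%). These shares describe how the lists are made up and not the change at 24 h. Among genes past both thresholds, the E2F site was in 0.503% of promoters of those that rose and 0.549% of those that fell. The CHR was in 9.05% and 11.5% of them.

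**Figure D4:**
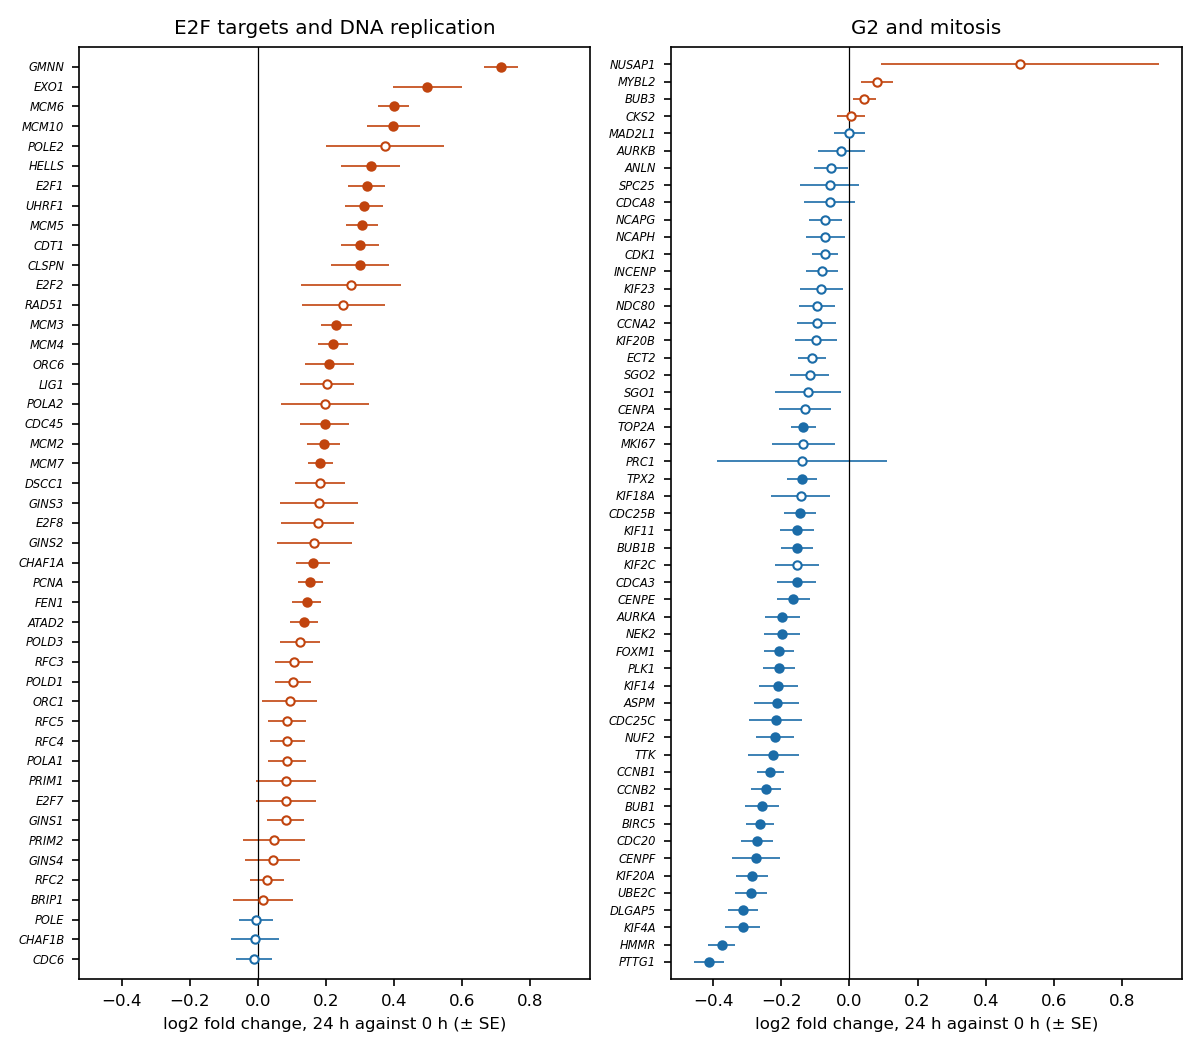
Log2 fold change, 24 h against 0 h, with its standard error, of each tested member of the lists of E2F targets and DNA replication (46 genes) and of G2 and mitosis (53 genes). Filled points passed the adjusted p, and they lie to the right of 0 in the first list (20 genes) and to the left in the second (28 genes).

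Replication-dependent histones have messages without a poly(A) tail, and their counts in mRNA libraries are low. Over the list, 1 of 37 tested members rose (2.7%) and 7 fell (18.9%). Of those that fell, H2BC8 (-0.33) and H2BC5 (-0.26) kept their call in every alternative. H1-4 (-0.67) and H2BC11 (-0.45) lost theirs in 6 and 4 alternatives. H1-3 was at 0.0807, 0.172 and 0.0342 CPM at 0 h and 0.341, 0.221 and 0.461 CPM at 24 h (1.81) and H2AC4 at 0.258, 0.172 and 0.171 CPM at 0 h and 0, 0.0736 and 0.0384 CPM at 24 h (-2.31), both under 1 CPM in all 6 libraries and each losing its call in 3 alternatives that left out 1 library (0 h replicate 1 and 24 h replicate 3 for both, 0 h replicate 3 for H1-3 and 24 h replicate 1 for H2AC4). Among p53 targets 4 of 19 tested members rose (21.1%) and 6 fell (31.6%). PLK3, a polo-like kinase that is also an immediate-early gene, was at 5.34, 5.903 and 5.899 CPM at 0 h and 16.6, 16.01 and 14.8 CPM at 24 h (log2 fold change 1.47 ± 0.0764 SE, adjusted p = 2.4e-17), and the p53 antagonist MDM2 fell to a log2 fold change of -0.24.

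Genes of the androgen-responsive list fell more often than they rose. In it, 3 of 28 tested members rose (10.7%) and 17 fell (60.7%), with a median of -0.27, and 5 of the falls reached 1.5-fold. The number that fell was 13 to 15 with 1 library left out, the lowest without 0 h replicate 3. SLC45A3, prostein, was at 187, 194 and 188 CPM at 0 h and 114, 114 and 106 CPM at 24 h (log2 fold change -0.77 ± 0.0354 SE, adjusted p = 6.5e-19), and TMPRSS2, a serine protease, was at 47.2, 49.02 and 48.2 CPM at 0 h and 31.9, 31.98 and 33.3 CPM at 24 h (log2 fold change -0.57 ± 0.0434 SE, adjusted p = 9.0e-13). In both genes the groups were far apart.

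The members of the list did not move as one. PLPP1 (-0.70), GNMT (-0.75), ACP3, prostatic acid phosphatase (-0.47), TSC22D3 (-0.46), ZBTB16 (-0.40) and SPDEF (-0.29) fell, and KLK2 fell by 0.22 on the log2 scale, with 236, 238 and 251 CPM at 0 h and 220.2, 197 and 204 CPM at 24 h. The gene for prostate-specific antigen, KLK3, rose instead (log2 fold change 0.25 ± 0.0329 SE, adjusted p = 2.6e-07), as did ABCC4 (0.52) and CENPN (0.35). FKBP5, another androgen-induced gene, had a log2 fold change of 0.10 and adjusted p = 0.091. GNMT overlaps PEX6 and PLPP1 overlaps MTREX, each on the opposite strand.

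Of the prostate lineage factors, listed with nuclear receptors and their coregulators, 4 of 20 tested members rose (20%) and 5 fell (25%). HOXB13 fell, with 468, 480.4 and 458 CPM at 0 h and 419.8, 422 and 411 CPM at 24 h (-0.17), and GATA2 rose, with 296, 295 and 288 CPM at 0 h and 354, 347 and 334 CPM at 24 h (0.24). FOXA1, the pioneer factor of the luminal program, was at 561, 561 and 556 CPM at 0 h and 528, 535 and 528 CPM at 24 h with a log2 fold change of -0.08 (adjusted p = 0.062). EHF, an epithelial ETS factor, fell (-0.27), whereas ELF3 (0.25) and KLF5 (0.53) rose. KLF5 had under 3 CPM in every library and lost its call when 0 h replicate 1 or 3 or 24 h replicate 1 was left out.

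Markers of other lineages were mostly at low levels. Among neuroendocrine markers, 3 of 7 tested members rose (42.9%) and 1 fell (14.3%). DDC, the decarboxylase of dopamine and serotonin synthesis, was at 83.8, 83.6 and 81.5 CPM at 0 h and 56.2, 53.3 and 52.1 CPM at 24 h (log2 fold change -0.62 ± 0.04003 SE, adjusted p = 9.0e-15), and DLL3, an inhibitory Notch ligand, at 9.36, 8.31 and 8.96 CPM at 0 h and 12.7, 11.3 and 11.1 CPM at 24 h (log2 fold change 0.39 ± 0.0798 SE, adjusted p = 3.2e-04). Among basal markers 2 of 8 tested members rose (25%) and 1 fell (12.5%), namely S100A2, at 0.226, 0.155 and 0.1197 CPM at 0 h and 0.660, 0.552 and 0.576 CPM at 24 h, TRIM29, at 2.02, 2.08 and 2.69 CPM at 0 h and 3.13, 2.94 and 3.55 CPM at 24 h, and LAMA3 (-0.46). TRIM29 lost its call without 0 h replicate 1 or 2 or 24 h replicate 3. The basal factor TP63 had 5 counts over the 6 libraries.

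Epithelial keratins and junction genes moved both ways. Over the list, 5 of 28 tested members rose (17.9%) and 8 fell (28.6%). KRT8 rose by 0.17 and CLDN7, a claudin, rose from 251 ± 5.68 to 310.5 ± 10.4 CPM (0.31). DSC2, a desmosomal cadherin, was at 396, 367 and 386 CPM at 0 h and 254, 248 and 254 CPM at 24 h (log2 fold change -0.60 ± 0.0336 SE, adjusted p = 1.7e-16), and the tight junction genes TJP1 (-0.27), MARVELD2 (-0.27) and OCLN (-0.24) fell, with CDH1, E-cadherin, at -0.09, a call lost in 7 alternatives. The number of this list that rose was 3 without 0 h replicate 2. Among mesenchymal markers and EMT factors, 4 of 14 tested members rose (28.6%) and 1 fell (7.14%). LOX, lysyl oxidase, which crosslinks collagen, was at 5.31, 4.96 and 5.27 CPM at 0 h and 15.5, 15.6 and 14.4 CPM at 24 h (log2 fold change 1.55 ± 0.07705 SE, adjusted p = 5.9e-18), and it overlaps SRFBP1. SNAI1 (0.48) and FN1, fibronectin (0.38), rose as well, but FN1 lost its call in 8 alternatives and SNAI1 in 6. VIM, vimentin, fell (-0.31) and lost its call without 0 h replicate 3 or 24 h replicate 1 or 3. The number of this list that rose was 2 without 0 h replicate 2 or 24 h replicate 1 or 2.

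At the cell surface the antigens pursued in prostate cancer and for antibody conjugates went different ways. Over the list, 6 of 26 tested members rose (23.1%) and 9 fell (34.6%). FOLH1, prostate-specific membrane antigen, fell from 1606 ± 10.2 to 1437 ± 3.22 CPM (mean ± SD, n = 3 each, log2 fold change -0.16 ± 0.0287 SE, adjusted p = 5.1e-05) without overlap of the groups, and STEAP1 was at 259, 256 and 256 CPM at 0 h and 255, 243 and 258 CPM at 24 h (adjusted p = 0.61). CD274 (PD-L1) was at 2.71, 2.03 and 2.09 CPM at 0 h and 1.02, 0.791 and 1.06 CPM at 24 h (log2 fold change -1.25 ± 0.201 SE, adjusted p = 9.4e-06), CD24 at 8.83, 8.61 and 8.11 CPM at 0 h and 4.71, 4.23 and 4.57 CPM at 24 h (log2 fold change -0.92 ± 0.0976 SE, adjusted p = 3.0e-09) and SLC44A4, a choline transporter, at 98.9, 106 and 104 CPM at 0 h and 69.7, 66.9 and 63.5 CPM at 24 h (log2 fold change -0.63 ± 0.0388 SE, adjusted p = 3.3e-15). These genes and FOLH1B were the members that fell by at least 1.5-fold. FOLH1B is a near-identical copy of FOLH1, which has far more counts, so that its value (-0.74) may hold reads of FOLH1. TMEFF2 (-0.55), PSCA (-0.53, not past the test without 0 h replicate 2 or 3 or 24 h replicate 2) and CD9 (-0.34) fell, and the transferrin receptor TFRC (0.26), B4GALNT1 (0.30) and LY6E (0.24) rose.

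Receptors for matrix and for neighbouring cells were next. Among integrin subunits 4 of 14 tested members rose (28.6%) and 1 fell (7.14%), with the collagen receptor subunit ITGA2 at 12.9, 11.4 and 9.66 CPM at 0 h and 15.7, 14.9 and 17.5 CPM at 24 h (log2 fold change 0.50 ± 0.0804 SE, adjusted p = 1.3e-05) and ITGA3 (0.41), ITGB5 (0.37) and ITGA6 (0.25) higher. Of Eph receptors and ephrins 4 of 18 tested members rose (22.2%) and 4 fell (22.2%). EPHA2 was at 10.2, 10.3 and 8.96 CPM at 0 h and 15.6, 15.97 and 15.4 CPM at 24 h (log2 fold change 0.67 ± 0.0709 SE, adjusted p = 3.0e-09), EPHA1 at 17.4, 18.4 and 18.9 CPM at 0 h and 30.6, 30.3 and 28.8 CPM at 24 h (log2 fold change 0.71 ± 0.05399 SE, adjusted p = 7.9e-13) and EPHA3 at 215, 213 and 225 CPM at 0 h and 139, 140.4 and 146 CPM at 24 h (log2 fold change -0.62 ± 0.0329 SE, adjusted p = 4.2e-17), so that members of the A class moved both ways. Without 24 h replicate 2 the number that rose was 2. Of other receptor tyrosine kinases, 5 of 18 tested members rose (27.8%) and 1 fell (5.56%). FGFR2 was at 4.12, 4.03 and 3.59 CPM at 0 h and 6.05, 6.55 and 6.72 CPM at 24 h (log2 fold change 0.72 ± 0.114 SE, adjusted p = 8.6e-06), TYRO3 rose by 0.39 and FGFR4 by 0.35, and RET, with at most 0.517 CPM, fell (-1.23), a call lost in 6 alternatives. Of semaphorins, plexins and neuropilins 4 of 24 tested members rose (16.7%) and 3 fell (12.5%), with SEMA6D at 2.73, 2.496 and 2.98 CPM at 0 h and 9.28, 8.52 and 9.93 CPM at 24 h (log2 fold change 1.76 ± 0.104 SE, adjusted p = 9.2e-16).

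Cadherins and protocadherins outside the junction lists fell more often than they rose. Over the list, 2 of 16 tested members rose (12.5%) and 8 fell (50%), with a median of -0.26. PCDH7 was at 5.28, 6.33 and 6.09 CPM at 0 h and 1.299, 0.920 and 1.06 CPM at 24 h (log2 fold change -2.44 ± 0.151 SE, adjusted p = 3.4e-15). CDH6 (-2.25), PCDH9 (-1.42) and PCDH17 (-1.29) fell from levels near 1 CPM, where few counts limit the fold. CDH7 rose (0.71) and lost its call in 4 alternatives, and it shares short repeat-like sequence with several genes.

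Among potassium channels, 7 of 19 tested members rose (36.8%) and 2 fell (10.5%). KCNQ5 was at 2.02, 1.996 and 1.54 CPM at 0 h and 3.11, 2.65 and 2.88 CPM at 24 h (log2 fold change 0.63 ± 0.162 SE, adjusted p = 0.0036), and KCNMA1, the large-conductance channel, fell (-0.53), as did KCNN2. Of ABC transporters 4 of 17 tested members rose (23.5%) and 3 fell (17.6%). Besides ABCB11, ABCA1, the cholesterol exporter, was at 6.38, 5.23 and 5.88 CPM at 0 h and 4.002, 3.86 and 3.36 CPM at 24 h (log2 fold change -0.64 ± 0.116 SE, adjusted p = 6.0e-05), ABCA12 fell (-0.50) and ABCA3 rose (0.26). In antigen presentation 6 of 21 tested members rose (28.6%) and 4 fell (19%). B2M, the invariant chain of class I, was at 97.4, 95.6 and 92.8 CPM at 0 h and 83.8, 84.04 and 84.1 CPM at 24 h (-0.18), TAP2, of the peptide transporter, rose from 11.7 ± 0.546 to 15.4 ± 0.432 CPM (0.40), and HLA-F (0.66) and NLRC5 (0.78) rose from under 1.1 CPM, whereas CIITA, the class II transactivator, fell (-0.60). Leaving out 1 library ended the call of NLRC5 (0 h replicate 3, 24 h replicate 1 or 2), of HLA-F (24 h replicate 1) and of CIITA (0 h replicate 1 or 24 h replicate 3), and that of HLA-F was also lost after thinning to the smallest total. The number of the list that fell was 1 without 24 h replicate 3 and 2 without 0 h replicate 1 or 3 or 24 h replicate 2.

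Tested genes were then placed in the order of their start on each chromosome, and stretches of at least 4 neighbours that all rose or all fell were listed. There were 14 such runs of genes that rose, holding 60 genes, and 14 of genes that fell, holding 75 genes, with at most 6 and 12 genes in a run. With both thresholds and at least 3 genes, 4 runs rose and 7 fell. The runs are a description, since single genes among all tested rose in 12.1% and fell in 9.63% of cases, neighbours can overlap, and no test of their number was made.

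The longest run lay on chromosome 6 from 159762045 to 160992342 (GRCh38, coordinates of the table), with 12 genes from ACAT2 to MAP3K4-AS1 that fell by log2 fold changes of -0.16 to -1.95. IGF2R, the receptor that carries insulin-like growth factor 2 to lysosomes, was at 716, 632 and 611 CPM at 0 h and 384, 399.9 and 433 CPM at 24 h (log2 fold change -0.69 ± 0.109 SE, adjusted p = 0.0051). SLC22A3, an organic cation transporter, was at 273, 264 and 273 CPM at 0 h and 148, 139.9 and 153 CPM at 24 h (log2 fold change -0.88 ± 0.0339 SE, adjusted p = 3.5e-21), and its neighbour of the same family SLC22A2 (-0.67) fell too, with LPAL2 at -1.18. The run held ACAT2, TCP1 and MRPL18 at its start, with smaller falls. AIRN overlaps IGF2R and was at or below 0.479 CPM, so its fall (-1.95) cannot be told apart from reads of IGF2R. Other pairs overlap on opposite strands, namely ACAT2 with TCP1, SLC22A2 with RP1-276N6.2, SLC22A3 with RP11-72O9.5 and MAP3K4-AS1 with MAP3K4. Their counts may be mixed, so the 12 genes need not be 12 separate falls. Of the 6 tested genes to each side, 1 rose and 2 fell.

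On chromosome 3, from 169764520 to 169869935, 7 neighbours fell past both thresholds. They were TERC, the RNA template of telomerase, ACTRT3, RP11-816J6.3, MYNN, RP11-362K14.5, LRRC34 and LRRC31. MYNN, a zinc finger factor, was at 64.5, 65.2 and 64.8 CPM at 0 h and 26.7, 25.3 and 30.4 CPM at 24 h (log2 fold change -1.24 ± 0.0485 SE, adjusted p = 5.2e-21) and ACTRT3, an actin-related protein, at 13.3, 14.5 and 13.2 CPM at 0 h and 4.81, 3.75 and 5.24 CPM at 24 h (log2 fold change -1.58 ± 0.0943 SE, adjusted p = 1.2e-15). LRRC31 was at 11.04, 11.7 and 11.8 CPM at 0 h and 7.45, 7.75 and 7.56 CPM at 24 h (-0.60), and TERC at 0.743, 0.774 and 0.427 CPM at 0 h and 0.1703, 0.129 and 0.115 CPM at 24 h (-2.22), a level set by few counts. RP11-362K14.5 overlaps MYNN on the opposite strand and has far fewer counts. All 7 genes passed the adjusted p in each of 9 alternatives, which were DESeq2, the fit of 6 libraries, the replicate block and each library left out in turn. MECOM, before the run, also fell (-0.91).

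A run of 5 genes on chromosome 9, from 4984390 to 5470566, held JAK2, the kinase of cytokine receptors (-0.45), the relaxin genes RLN2 (-1.34) and RLN1 (-1.46), PLGRKT (-0.45) and CD274 (-1.25), and all 5 passed in the same 9 alternatives. RLN1, a peptide hormone gene expressed in prostate, was at 6.797, 6.76 and 6.09 CPM at 0 h and 2.17, 2.71 and 2.25 CPM at 24 h (log2 fold change -1.46 ± 0.1196 SE, adjusted p = 6.2e-12). The metallothioneins MT2A, MT1DP, MT1F, MT1G and MT1X formed a run of 5 on chromosome 16, and beyond it NUP93, a nuclear pore gene, fell by 0.99 on the log2 scale, with 416, 433 and 456 CPM at 0 h and 220.4, 212 and 225 CPM at 24 h. This run was whole under both thresholds in 3 of the 9 alternatives.

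Among runs that rose, FAM131B, AC093673.5, ZYX and EPHA1 on chromosome 7 rose past both thresholds, and in all 9 alternatives. FAM131B was at 0.226, 0.275 and 0.257 CPM at 0 h and 2.15, 2.47 and 2.13 CPM at 24 h (log2 fold change 3.15 ± 0.285 SE, adjusted p = 7.5e-11), and ZYX, zyxin, a protein of focal adhesions, at 49.6, 49.7 and 52.1 CPM at 0 h and 101, 106 and 93.1 CPM at 24 h (log2 fold change 0.99 ± 0.0414 SE, adjusted p = 3.8e-20). ZYX and EPHA1 overlap on opposite strands, so that their counts may be mixed. On chromosome 4 GALNT7, a glycosyltransferase of mucin-type glycan synthesis, was at 91, 92.3 and 90.1 CPM at 0 h and 222, 230.5 and 229 CPM at 24 h (log2 fold change 1.32 ± 0.0329 SE, adjusted p = 6.0e-27), beside GALNTL6 and RP11-10K16.1, which overlaps it and has far fewer counts. On chromosome 1 TMEM50A was at 26.4, 27.1 and 25.5 CPM at 0 h and 56.1, 58.4 and 54.3 CPM at 24 h (log2 fold change 1.09 ± 0.0451 SE, adjusted p = 2.3e-20), and the blood group genes RHD and RHCE beside it rose from at most 0.533 CPM. RHD and RHCE are near-identical copies and overlap RSRP1 and TMEM50A, which have many times their counts, so their rises cannot be told apart from these, and RHCE lost its call without 0 h replicate 3 or 24 h replicate 1. On chromosome 8 KCNU1, RP11-150O12.3 and ZNF703, a zinc finger gene of luminal epithelium at 59.5, 62.5 and 65.3 CPM at 0 h and 101, 99.5 and 97.9 CPM at 24 h (0.67), rose, and RP11-150O12.3 lost its call in 4 alternatives. The other runs past both thresholds held 3 genes each: one around EPHA6 on chromosome 3 (-0.67), FOLH1B, TRIM49 and NAALAD2 (-1.01) on chromosome 11, and an lncRNA gene with 2 pseudogenes, among them BCAP31P1, on chromosome 16, a run that was whole in 1 of the 9 alternatives.

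**Figure D5:**
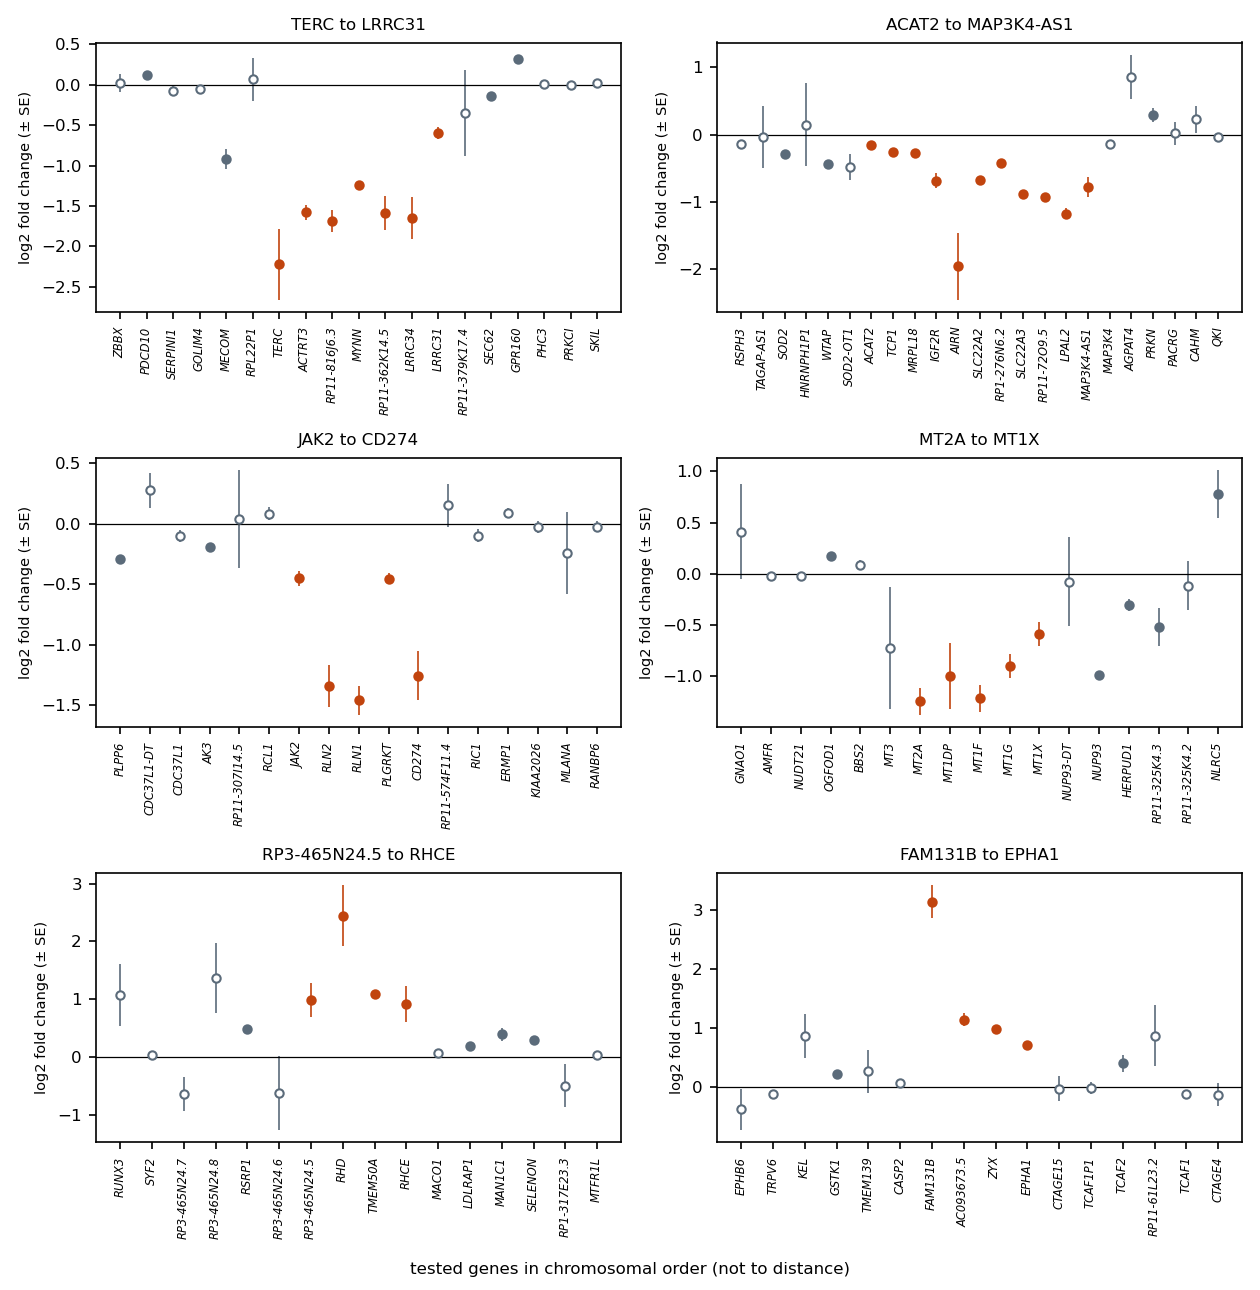
Log2 fold change, 24 h against 0 h, with its standard error, of the genes of 6 runs (orange) and of up to 6 tested genes to each side (grey), in chromosomal order and without distance, less 1 gene of the longest run. Filled points passed the adjusted p. The falls of the run from TERC to LRRC31 (-0.60 to -2.22) have RPL22P1 and RP11-379K17.4 as next neighbours, which did not pass, and MECOM fell 1 gene further out.

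By whole chromosome the shares lay between 8.83% and 16.9% higher and between 7.17% and 11.9% lower over the autosomes and X. Chromosome 8 had the highest share of genes that rose (113 of 669, 16.9%) and the lowest of genes that fell (48, 7.17%). Chromosome Y lay outside both ranges, with 32 tested genes of which 0 rose and 6 fell (18.8%). Of the 34 tested genes of mitochondrial DNA 0 rose and 10 fell.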

How the data were processed

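RNA of LNCaP cells was sequenced by the authors as paired reads of TruSeq mRNA libraries. Reads were trimmed with Cutadapt, aligned with STAR to GRCh38.p13 and counted per Gencode gene with featureCounts, and the authors deposited raw counts. How strand and multi-mapping reads were treated is not given in the sources used here. Per the methods, 1 LNCaP replicate at time 0 had been excluded for quality, of a treatment that is not named.

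Counts of all 9 libraries of the NRG1 series (0, 12 and 24 h) were fitted with the robust quasi-likelihood test of edgeR 4.0.16 in R 4.3.3 after TMM scaling, and 24 h was contrasted with 0 h. Genes with at least 10 counts in 3 of the 6 compared libraries were kept, and p-values were adjusted by Benjamini-Hochberg over all of them. The 2 call rules were an adjusted p of at most 0.05, and this with a fold change of at least 1.5. A further 14 columns without values were left aside. Counts carry no molecular identifiers, and their number limits the values of genes near 1 CPM.

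The members and the 49 gene lists were chosen with earlier results of these data known, so their counts and medians are descriptions, read beside those of all genes. Genes named were the 12 largest rises and 12 largest falls past both thresholds without overlap whose average log2 CPM reached 2, up to 4 members of each list by size of change among those past the adjusted p whose average log2 CPM reached 0, and the members of runs past both thresholds, in all 238 genes. Other genes, except the fixed markers of the line and of other cell types, were chosen after their values were seen. A few genes that these rules name are not reported here, while counts over lists and runs include them. Of the 238, 48 overlap a gene with over 10% of their counts, also MAFF, CD274, OSGIN1, CIITA, KIF4A and SLC22A3, and 13 share a stretch of at least 150 bases and 95% identity (BLAST 2.17.0) with such a gene. Promoters came from RefSeq (GRCh38.p14) and matched 11834 of 18884 tested symbols, or 80.1% of protein-coding ones.

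The code was tested on simulated data. Alternatives were DESeq2 1.42.0, the 6 compared libraries alone, other scalings, other filters, thinning to the smallest total, stricter folds, glmTreat, a replicate block and each library left out in turn.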

Additional observations from a re-analysis of the deposited data

How the results depend on the processing

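The number of genes past both thresholds (638) was 575 with DESeq2, 602 with the 6 compared libraries alone and 551 to 597 with 1 library left out. The number past the adjusted p alone (4099) was 3856, 3774 and 3320 to 3771 in the same order. With a fold change of at least 2 there were 268 genes (123 higher, 145 lower), and a test against 1.5-fold (glmTreat) left 153 (88 higher, 65 lower). Requiring 10 counts in each of the 6 libraries, which tests fewer genes, gave medians of 0.79 for ERK output, -0.0453 for metallothioneins and zinc transporters and -0.20 for cadherins.

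With 1 library left out, the median of ERK output ranged from 0.91 to 1.03, of pyrimidine synthesis from 0.0612 to 0.137, of metallothioneins and zinc transporters from -0.0982 to -0.048, of androgen-responsive genes from -0.29 to -0.24 and of cadherins from -0.36 to -0.24. Members that rose ranged from 6 to 19 in glycolysis and from 5 to 11 among aminoacyl-tRNA synthetases, and members that fell from 18 to 28 in G2 and mitosis. The runs numbered 8 to 12 higher and 8 to 11 lower at the adjusted p, and 2 to 4 higher at both thresholds. DESeq2 gave 4 runs lower at both thresholds, and an average log2 CPM of at least 0 gave 23 runs higher at the adjusted p and 1 at both thresholds. The causes of these differences were not tested.

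The replicate block gave 624 genes past both thresholds and 4143 past the adjusted p. Libraries of the same number did not deviate together (correlations of -0.042, 0.020 and -0.026). No effect shared by number was thus seen, but such values cannot show whether wells of the same number were handled together. Of the 238 named genes 203 kept their call in every alternative and 35 lost it in at least 1, among them MT-ATP8 and FN1 under the block, and no direction was reversed. There were 14 lists with at least 40% of members past the test in one direction. Of these, 0 changed the sign of their median, against 13 of the other 35. The 14 were picked by their calls in the main fit of the same counts, so this contrast was largely set by that choice.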
